A study of Rattus norvegicus with 4 samples.

Results

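A set of 5 genes of blood vessel growth and vessel tone was followed in rat fracture callus: Vegfa (ENSRNOG00000019598), Flt1 (ENSRNOG00000000940), Hif1a (ENSRNOG00000008292), Edn1 (ENSRNOG00000014361) and Nos3 (ENSRNOG00000009348). The rule that chose them names them and uses no measured value, though the choice was made with earlier results of these data known. They are 5 of the 20174 genes with a probe on the array. All 5 were present, and none was null in the authors' deposited table. The array files carry Ensembl IDs alone, so the symbols are those given with the choice of the genes.

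The material was the fracture callus (soft and hard tissue that bridges a break) of male Sprague–Dawley rats 12 weeks old. Every animal, control or diabetic, had a 1.25 mm wire placed in the canal of the right femur and a closed fracture of its shaft. The diabetic groups had received 40 mg/kg of streptozotocin, which kills the beta cells that make insulin, and had blood glucose over 300 mg/dl, while the control groups had received sodium chloride and had glucose labelled normal. Callus was taken on day 5 and day 11, and tissue of 5 animals was pooled for each of the 4 arrays (control day 5, diabetic day 5, control day 11 and diabetic day 11). The groups thus have 1 array each, the spread between animals cannot be estimated, and no difference between a pair of arrays has a replicate check or a p-value. Callus is a mix of cell types, so fewer cells of a type and less RNA per cell cannot be told apart. The markers of callus and of endothelium were not checked here, because no symbol could be paired with the other IDs.

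As background, a fracture tears the local vessels, and new vessels grow into the callus while its cartilage is replaced by bone. Hif1a encodes the oxygen-regulated subunit of the transcription factor HIF-1, which binds the DNA core ACGTG or GCGTG and switches on genes such as Vegfa when oxygen is low; its activity is set largely by the stability of the protein, which an mRNA array does not measure. Vegfa is the main secreted growth factor of endothelial cells, and Flt1, also called VEGF receptor 1, binds it at the surface of these cells or, as a soluble form, in the fluid around them. Edn1 encodes the precursor of endothelin-1, a peptide that narrows vessels, and Nos3 encodes the endothelial nitric oxide synthase, whose product relaxes them.

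The start-site windows of the genes are shown because one member of the set encodes a transcription factor with a known DNA core, which can be looked for in the others. RefSeq windows of the GRCr8 build, 250 bases before to 50 bases after a start site, were available for all 5 genes. Vegfa, the gene with the largest difference between diabetic and control callus among them, is given in full from its upstream start (chr9:22452604-22452903, plus strand). The capitals mark GGGCGG, the GC box bound by factors of the Sp1 family. That motif was added to the search after the window had been seen.
Vegfa: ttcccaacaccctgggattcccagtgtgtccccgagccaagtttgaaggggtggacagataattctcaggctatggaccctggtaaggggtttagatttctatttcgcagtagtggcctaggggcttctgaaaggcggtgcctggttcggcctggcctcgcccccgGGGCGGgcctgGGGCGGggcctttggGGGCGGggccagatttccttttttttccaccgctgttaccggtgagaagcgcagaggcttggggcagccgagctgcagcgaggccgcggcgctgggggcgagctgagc
This window held 3 GC boxes, as did that of Flt1, while that of Hif1a held 2 and that of Edn1 0. It held neither hypoxia core on either strand, and the window of the other listed Vegfa start (chr9:22460028-22460327, plus strand) held none of the 3 motifs. Bases outside these windows were not searched, so a core farther from a start site would not be seen. Hypoxia cores were found in the windows of Hif1a, Flt1 and Edn1, shown as stretches of 30 bases with the core in capitals.
Hif1a: cacacagacgagCACGTGagctgggcagct
Hif1a: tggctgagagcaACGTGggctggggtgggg
Flt1: ctagcgccaccgCACGCgcgctccggcccc
Edn1: tatctccggctgCACGTtgcctgtgggtga

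The upper Hif1a stretch (chr6:98359657-98359686, plus strand) holds CACGTG, which reads as ACGTG on both strands and so counts as 2 overlapping matches. The lower one (chr6:98359722-98359751, plus strand) holds ACGTG at position -164 from the start site. The Flt1 stretch (chr12:12333191-12333220, plus strand) holds GCGTG on the opposite strand at position -227. The Edn1 stretch (chr17:22666871-22666900, minus strand) holds ACGTG on the opposite strand at position -201. The Nos3 window (chr4:11706532-11706831, minus strand) held neither core and 1 GC box. Such matches are common: of 33469 windows of 300 bases, 19.3% held ACGTG on either strand, 29.7% held GCGTG and 33.1% held GGGCGG.

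Each gene was read from 1 spot per array in the Cy5 channel. The net signal is the spot median minus the mean of the blank spots of that array, in scanner units. It is not scaled between arrays. The normalized intensity comes from limma's normexp correction with an offset of 50 followed by quantile normalization, so it never falls far below 50, and folds on that scale understate the change of dim spots. A spot counted as above background if it exceeded the blank mean by more than 2 SD of the blank spots, which was so for 78.6% to 81.2% of 20161 genes per array. All 5 genes were above this limit on all 4 arrays, by net signals of 18.6 blank SD (Flt1, diabetic day 5) or more. They were also above the mean plus 2 SD of the negative control spots. The blank spots were trimmed before their limit was set, and the negative control spots were not.

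Error from spot to spot can be judged from 2 positive control probes printed at 24 spots per array. For the first, a pair of spots on the same array would differ by up to 0.321 to 0.466 (log2) in 95% of cases. This spot error, which depended on the array, came from the SD of the 24 spots as if their log2 values were normally spread. Pairs were not counted. For the second probe the figure was 1.03 to 3.38. Its lowest spot had a net signal of 212.1, on the diabetic day 11 array, beside a median of 11140. The SD of the second probe takes in 1 or 2 stray spots per array, so a normal spread describes it poorly. A lone spot can therefore be far off, and each gene here rests on a lone spot per array. The stray spots of the second probe lay below its median, and its highest spots had net signals of 12610 to 18480 against medians of 11140 to 15580.

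Vegfa, the ligand, was brighter in diabetic than in control callus on both days, and by more on day 11 than on day 5. How much brighter it was on day 5 depended on the background used. On day 5 its net signal read 52.73 (control) and 69.65 (diabetic), and on day 11 it read 58.72 (control) and 251.1 (diabetic). The diabetic day 11 array stands far above the other 3, which lie close together. In the same order, the normalized intensities were 100.5, 133.4, 106.2 and 315.6.

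On day 11 Vegfa was 2.97-fold higher in diabetic than in control callus on the intensity + 50 scale, a log2 difference of 1.57. It was the only one of the 5 genes at least 2-fold apart in that comparison, where 4.27% of 16732 genes were. Of those genes, 148 (0.885%) had a difference at least as high as that of Vegfa. Without the offset the difference was larger: the authors' deposited table lists 30.01 for control and 150.24 for diabetic callus, 5.01-fold apart, where 15.2% of the genes in the authors' deposited table were at least 2-fold apart. The log2 difference of 1.57 exceeds the spot error of the first positive control probe on every array. It lies within that of the second on the day 11 arrays, a figure that takes in the stray spots. Both probes were far brighter than Vegfa, at median net signals of 10620 or more, and their error is between spots of the same array.

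On day 5 Vegfa was 1.33-fold higher in diabetic callus, a log2 difference of 0.41. Of all genes compared, 4.67% had a difference at least as high. With the local background of each spot in place of the blank mean, the day 5 difference was 0.03. On the control and diabetic day 5 arrays the spot error was 0.321 and 0.384 for the first control probe. For the second it was 1.76 and 1.03. None of the 5 genes reached 2-fold on day 5, where 1.51% of 17030 genes did, and none did in the authors' deposited table, where 8.38% of genes did. The authors' deposited table lists 29.86 and 48.74 for Vegfa, 1.63-fold apart. The Vegfa difference between diabetic and control callus was thus larger on day 11 by 1.16 on the log2 scale, and 202 of 17661 genes had a change at least as high. With 1 array per group this change was not tested.

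**Figure D1:**
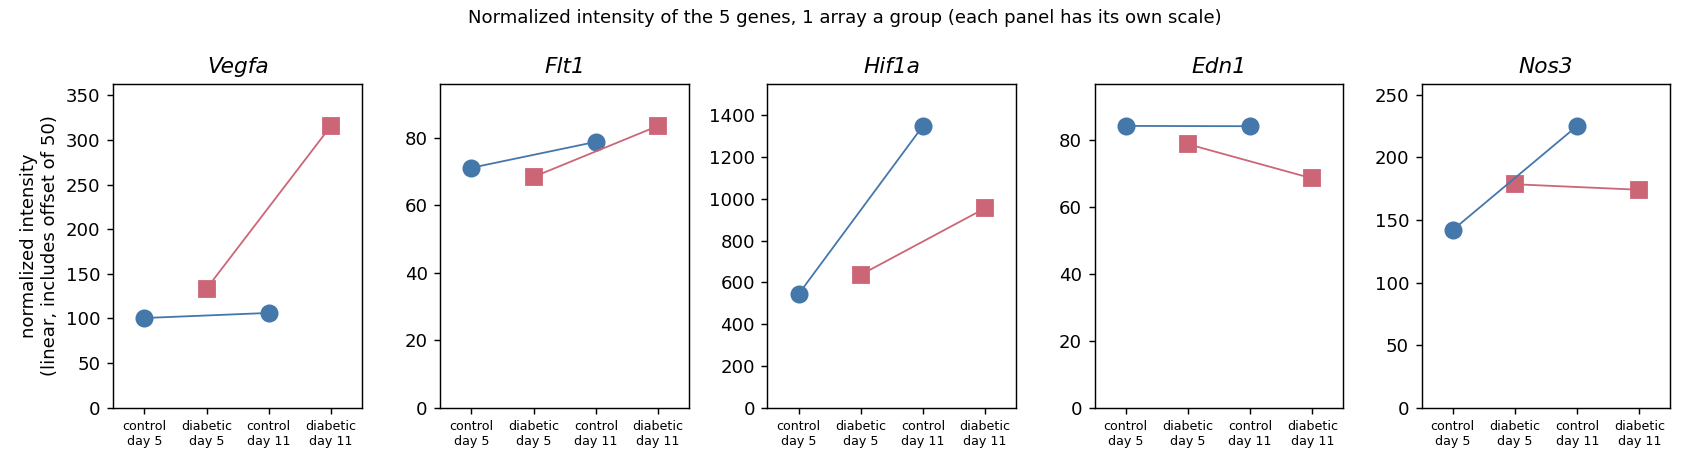
Normalized intensity (linear axis from 0, offset of 50 included) of each gene on the 4 arrays; each point is 1 array of tissue pooled from 5 animals, circles and blue for control, squares and red for diabetic, with lines joining the days of a condition. Vegfa stands out on the diabetic day 11 array at 315.6, Hif1a is highest on the control day 11 array at 1348, and Flt1 and Edn1 stay between 68.4 and 84.21.

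Over time, Vegfa was nearly level in control callus and was higher on day 11 in diabetic callus. In control callus the day 11 array was 1.06-fold above the day 5 array, a log2 difference of 0.08. In diabetic callus it was 2.37-fold above, a log2 difference of 1.24. Vegfa was the only one of the 5 at least 2-fold apart between the days in diabetic callus, where 1.35% of 16803 genes were. In the authors' deposited table as listed, Vegfa was again the only one, at 3.08-fold, with Flt1 just under 2-fold, where 7.07% of genes in that table were at least 2-fold apart.

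The spots around Vegfa were read as well. Of its 8 neighbours, 5 carried gene probes and 3 were blank. The 3 blank spots had net signals of -0.99 to 1.39 on the diabetic day 11 array. The brightest neighbour, to the right, had a net signal of 609.2 on the control day 11 array, where Vegfa was 58.72, and 220.6 on the diabetic day 11 array, where Vegfa was 251.1. Across the 8 neighbours the median diabetic minus control net signal on day 11 was -0.5646, and 3 were higher in diabetic callus.

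**Figure D2:**
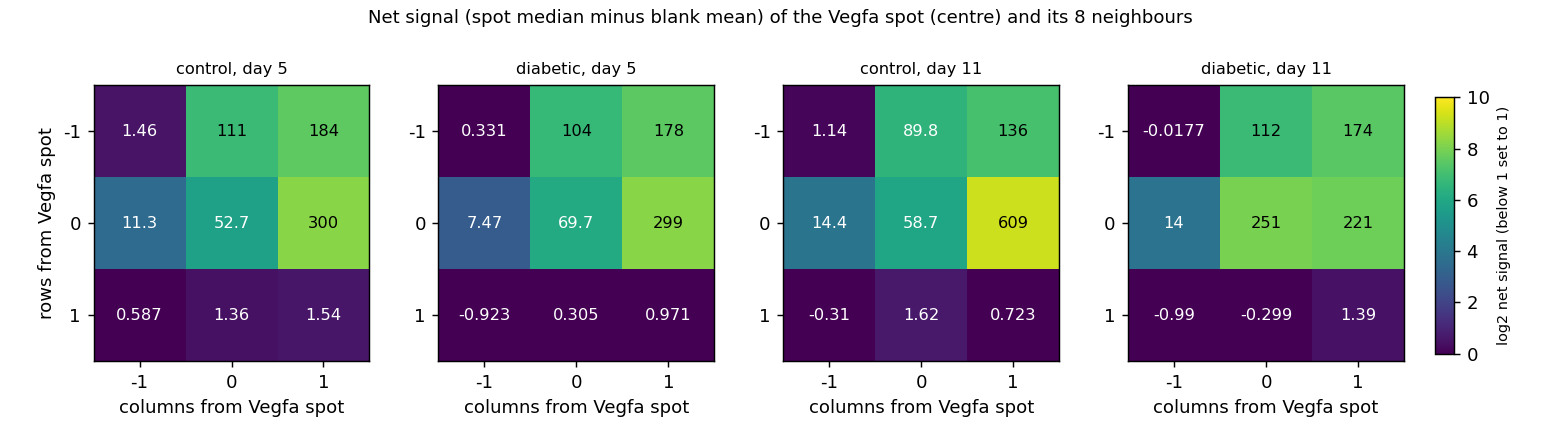
Net signal (spot median minus blank mean, scanner units, printed in each cell) of the Vegfa spot at the centre and its 8 neighbouring spots on each of the 4 arrays; colour shows the log2 of the same value, with values below 1 drawn as 1. The centre reads 52.73, 69.65, 58.72 and 251.1 from left to right, while the neighbour to the right reads 300.5, 299.4, 609.2 and 220.6.

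Flt1, the receptor, was dim on every array, and none of its differences reached 2-fold on the intensity + 50 scale. The net signal on day 5 read 20.42 (control) and 12.74 (diabetic), and on day 11 it read 28.94 (control) and 29.69 (diabetic). The day 11 arrays were thus above the day 5 arrays in both conditions, and the diabetic day 5 array was the lowest. Normalized intensities ran from 68.4 to 83.48.

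The log2 difference of Flt1 between diabetic and control callus was -0.06 on day 5 and 0.08 on day 11 on the intensity + 50 scale. These values are compressed by the offset and are not set against the spot error of the far brighter control probes. From day 5 to day 11 the difference was 0.15 (control) and 0.29 (diabetic). At this signal the size depends on the offset: without one, the authors' deposited table lists 8.92 on day 5 and 17.76 on day 11 in diabetic callus, 1.99-fold apart, or 1.10 on the log2 scale relative to the median gene of that table. The spot to the left of Flt1 had net signals of 7173 (control) and 8801 (diabetic) on day 5. On day 11 it read 5701 (control) and 20460 (diabetic). Both spots were highest on the diabetic day 11 array. The neighbour was lowest on the control day 11 array, where Flt1 read 28.94. On day 5 the neighbour was higher in diabetic callus, where Flt1 was lower. The part of that neighbour in the Flt1 values was not tested.

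Hif1a, the transcription factor, was clearly above background on every array and was higher on day 11 than on day 5 in both conditions. Net signals on day 5 read 508.3 (control) and 531.2 (diabetic), and those on day 11 read 1372 (control) and 877.9 (diabetic). The day 5 arrays were close to each other in net signal, and 1.17-fold apart once normalized, with diabetic callus higher. Both lay below the day 11 arrays, and the control day 11 array was the highest. Normalized intensities, in the same order, were 543.6, 636.2, 1348 and 954.6.

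In control callus Hif1a was 2.48-fold higher on day 11 than on day 5, a log2 difference of 1.31. It was the only one of the 5 genes at least 2-fold apart in that comparison, where 1.68% of 16893 genes were, and 87 genes (0.515%) had a difference at least as high. The authors' deposited table lists 287.82 on day 5 and 701.16 on day 11, 2.44-fold apart, where 8.2% of genes in that table were at least 2-fold apart. In that table the median gene was lower on day 11 by 0.14 on the log2 scale in control callus and by 0.11 in diabetic callus, and relative to these medians Hif1a differed by 1.43 and 0.61.

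In diabetic callus Hif1a was 1.5-fold higher on day 11, a log2 difference of 0.585. Between diabetic and control callus the sign differed by day: the log2 difference was 0.23 on day 5 and -0.50 on day 11. The day 11 value lies just past the spot error of the first control probe (0.466) and under 2-fold. It lies within that of the second on the control and diabetic day 11 arrays (2.71 and 3.38), figures that take in the stray spots.

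The Hif1a differences, save that between the days in diabetic callus, rest on how background was taken. In diabetic callus the day 11 minus day 5 log2 difference ran from 0.499 to 0.629 over 6 ways of making the values. On the control day 11 array the local background column stood at 92.6% of the Hif1a spot median, against 71.9% to 75.6% on the other 3 arrays. With that column as background in normexp, the day 11 minus day 5 log2 difference in control callus turned from 1.31 to -0.36, and the diabetic minus control difference on day 11 turned from -0.50 to 0.97. The local background was not used for the reported values because it followed the signal of the spot it surrounds: the logs of the 2 columns correlated at 0.981 to 0.99 over genes on each array, a description across genes that share an array. Around blank spots its median was 33.61 to 36.93.

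**Figure D3:**
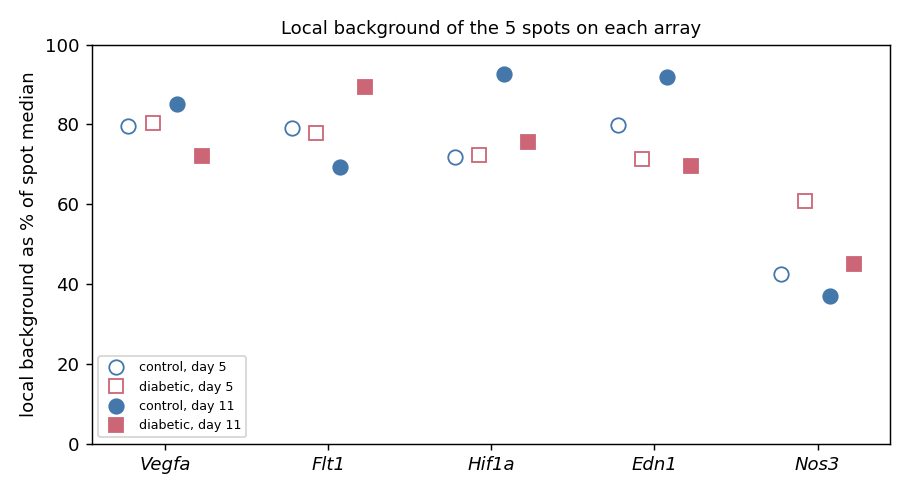
Local background as a percentage of the spot median (vertical axis, 0 to 100%) for the 5 genes on the 4 arrays; open symbols are day 5, filled symbols day 11, blue circles control and red squares diabetic. Hif1a and Edn1 reach 92.6% and 92% on the control day 11 array, and Nos3 lies lowest, at 37.1% to 60.7%.

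Edn1, the vasoconstrictor precursor, was dim and was lower in diabetic than in control callus on both days, a direction that turned with the local background (0.04 on day 5 and 0.20 on day 11 on the log2 scale). For day 5 the net signal read 34.52 (control) and 21.39 (diabetic), and for day 11 it read 34.93 (control) and 15.23 (diabetic). The 2 control arrays were nearly equal, and both diabetic arrays lay below them, with day 11 the lowest. The normalized intensities of these arrays were 84.21, 78.76, 84.12 and 68.52.

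The diabetic minus control log2 difference of Edn1 was -0.10 on day 5 and -0.30 on day 11, again compressed by the offset. Without an offset, the authors' deposited table lists 17.85 (control) and 9.11 (diabetic) for day 11, a 1.96-fold difference, or -1.02 on the log2 scale relative to the median gene of that table. In net signal, which is not scaled between arrays, the spots around Edn1 ran the same way. Of the 8 Edn1 neighbours, 1 was higher in diabetic callus on day 5 and 0 on day 11. Their median diabetic minus control net signal was -13.96 on day 5 and -10.79 on day 11. Spots around the other genes often read lower too. On day 5, 0 of 8 neighbours of Vegfa, 3 of Flt1, 3 of Hif1a and 1 of Nos3 were higher in diabetic callus. On day 11 these counts were 3, 4, 2 and 3. The spot below Edn1 was very bright on all arrays, at a net signal of 8294 to 11650. The part of the Edn1 neighbours in the Edn1 difference was not tested.

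Nos3, the endothelial nitric oxide synthase, was highest in control callus on day 11. On day 5 the spot had a net signal of 97.0 (control) and 111.8 (diabetic), and on day 11 of 186.8 (control) and 116.0 (diabetic). The control day 11 array stands above the other 3, which lie within 1.26-fold of each other in normalized intensity (142.0 for control day 5, 178.5 for diabetic day 5 and 174.1 for diabetic day 11). The control day 11 array had a normalized intensity of 225.1.

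In control callus Nos3 was 1.59-fold higher on day 11 than on day 5, a log2 difference of 0.665, and 2.3% of genes had a difference at least as high. In diabetic callus the days differed by -0.04 on the log2 scale. With the local background they differed by 0.47 in diabetic and 0.55 in control callus. Between diabetic and control callus the log2 difference was 0.33 on day 5 and -0.37 on day 11. With the local background the day 5 value turned to -0.26. Spot errors of the first control probe were 0.321 and 0.384 on the day 5 arrays and 0.466 and 0.321 on the day 11 arrays. Those of the second were 1.76 and 1.03, and 2.71 and 3.38. Both probes were far brighter than Nos3. None of the Nos3 differences reached 2-fold.

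Across the set, the order of the arrays differed from gene to gene. Hif1a and Nos3 were lowest on the control day 5 array and highest on the control day 11 array. Vegfa and Flt1 were highest on the diabetic day 11 array, where Edn1 was lowest. At a lower bar of 1.5-fold, 0 of the 5 genes were apart between diabetic and control callus on day 5 (4.68% of all genes were) and 1, Vegfa, on day 11 (10.5% of all genes). Between the days, Hif1a and Nos3 passed that bar in control callus (5.21% of all genes), and Vegfa and Hif1a passed it in diabetic callus (4% of all genes). On day 11 the median diabetic minus control log2 difference of the 5 genes was -0.30, beside 0.001 over all genes, with 2 genes higher and 3 lower. The day 5 median was 0.23 beside 0.007, with 3 higher and 2 lower. Between the days the median was 0.15 in control and 0.29 in diabetic callus, beside -0.006 and -0.011 over all genes, with 4 of 5 and 3 of 5 genes higher on day 11.

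**Figure D4:**
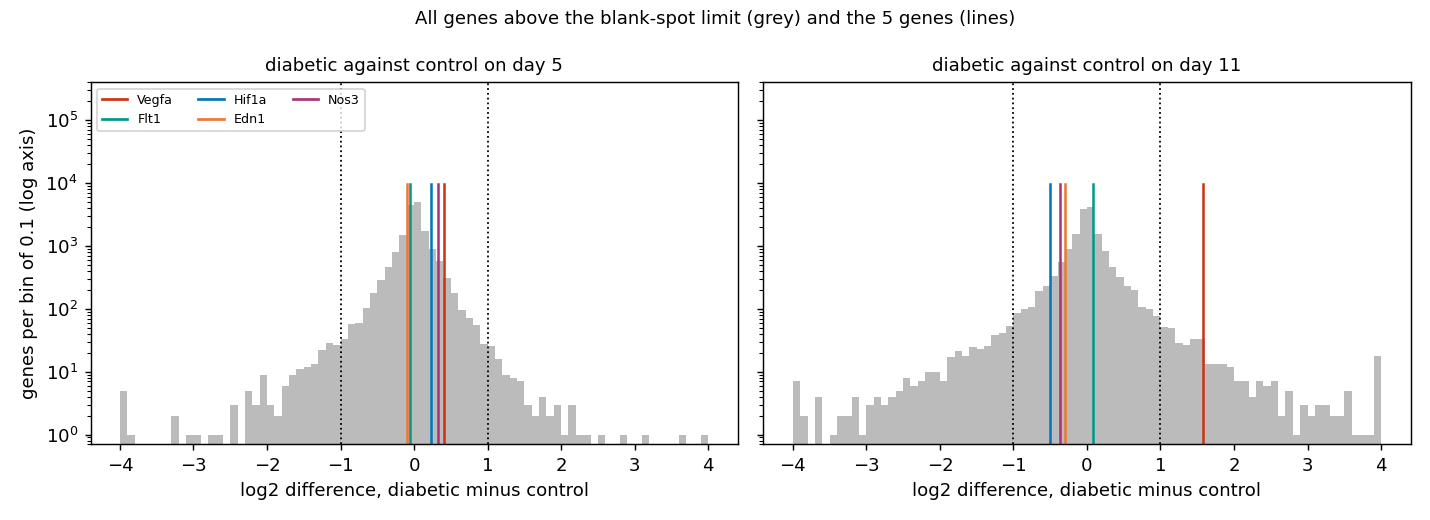
Histograms (grey, log count axis, bins of 0.1) of the diabetic minus control log2 difference of all genes above the blank-spot limit on day 5 (17030 genes) and day 11 (16732 genes), with values beyond 4 drawn in the end bins; coloured lines mark the 5 genes and dotted lines mark 2-fold. On day 11 Vegfa lies at 1.57, past 2-fold, and the other 4 lie between -0.50 and 0.08.

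Since each day had pools of its own, an average over days could be tested. A limma fit of condition plus day over all 4 arrays and 17661 genes left 1 residual degree of freedom per gene, and its error term takes in any true difference between the days in the effect of diabetes. The fit called 0% of genes for diabetes and 0% for day at a Benjamini-Hochberg adjusted p under 0.05. The lowest adjusted p in limma was 0.275 for diabetes and 0.525 for day, and 2659 and 1612 genes had an unadjusted p under 0.05.

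Averaged over days, Vegfa was higher in diabetic callus by 0.99 on the log2 scale (0.53 with the local background). The SE of the reported 0.99 was 0.381, Vegfa was higher on 2 of 2 days, and the adjusted p was 0.406 in limma. Edn1 was lower by this measure, at -0.20 (SE 0.0764, lower on 2 of 2 days), with an adjusted p of 0.41 in limma, and turned to 0.12 with the local background. For Flt1, Hif1a and Nos3 the averaged effect was 0.01, -0.14 and -0.02, with SEs of 0.0608, 0.239 and 0.231.

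Averaged over conditions, Hif1a was higher on day 11 by 0.95 (SE 0.239, higher in 2 of 2 conditions), with an adjusted p of 0.542 in limma. With the local background this effect was 0.13 (adjusted p of 1 in limma), higher in 1 of 2 conditions. The unadjusted p for Hif1a was 0.0439 in limma, the only one of the 10 member values under 0.05. Vegfa had a day effect of 0.66 (SE 0.381), Nos3 of 0.31 (SE 0.231), Flt1 of 0.22 (SE 0.0608) and Edn1 of -0.10 (SE 0.0764), with adjusted p in limma of 0.55 to 0.778. None of these averages passed the test.

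The likeness of other genes was measured as the root mean square distance between log2 profiles over the 4 arrays, each centred on its own mean, among 14681 other genes above the limit on all arrays. Vegfa, whose profile had the widest range of the 5 (1.65), had 47 genes (0.32%) within a distance of 0.2. The nearest were ENSRNOG00000016827, at a distance of 0.0321, and ENSRNOG00000028404, at 0.0478. The former had normalized intensities of 74.49 (control day 5), 93.38 (diabetic day 5), 76.84 (control day 11) and 232.6 (diabetic day 11). Hif1a had 24 such genes (0.163%) and Nos3 1499 (10.2%). For Flt1 and Edn1 66.6% and 69.4% of genes were that near, which restates that the offset flattens dim spots.

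**Figure D5:**
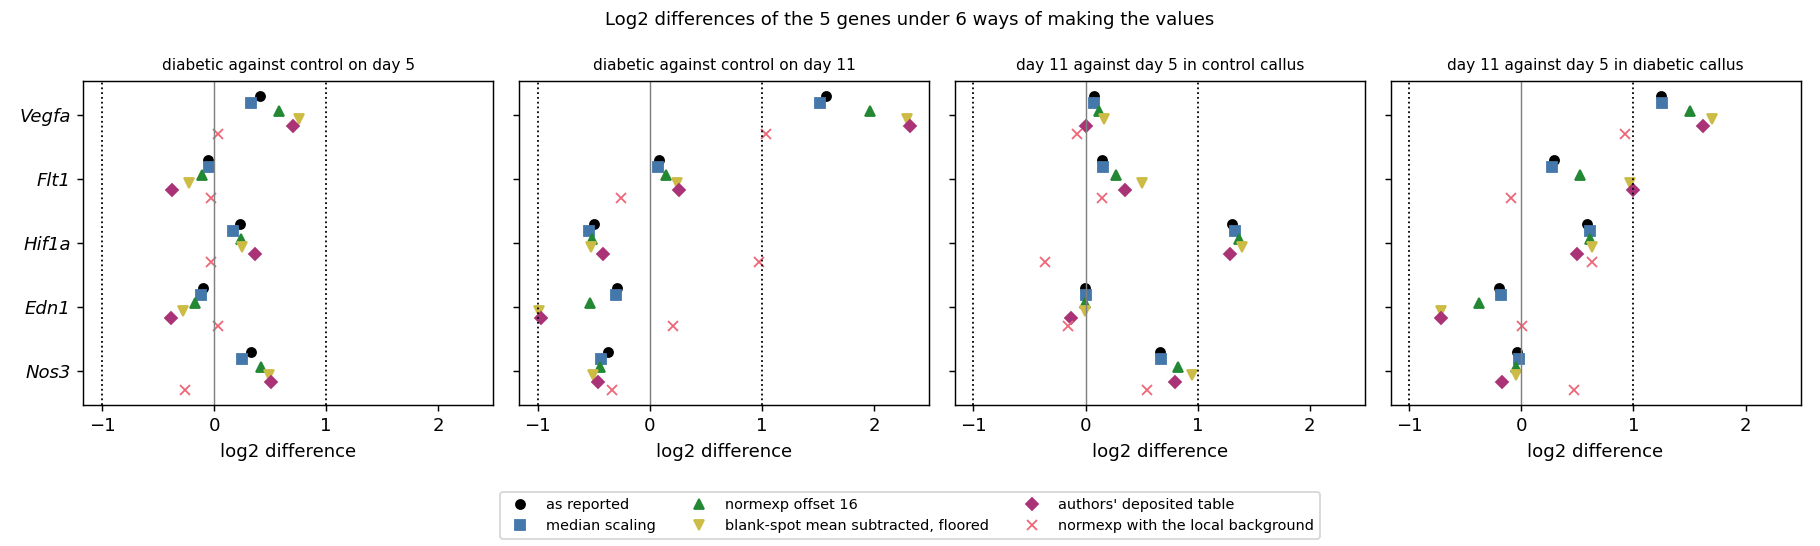
Log2 difference (horizontal axis, dotted lines at 2-fold) of each gene in the 4 comparisons under 6 ways of making the values, of which the black circle is the reported one. For Vegfa on day 11 all lie between 1.03 and 2.32, while for Hif1a between the days in control callus the local background value lies at -0.36 and the other 5 between 1.28 and 1.4.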

How the data were processed

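Each array was hybridised with Cy5-labelled amplified RNA, per the labels' protocols. The deposited array files give the median intensity of each spot and a local background intensity per the file headers, and flag each spot for each of 3 scanner gains. The way the gains were merged, and the build used for the probes, were not given in the sources used here. The authors' deposited table of linear intensity values equals the net signal times 1 factor per array. This was found by setting each column against the spot medians (all listed genes within 1%). The factors ran from 0.511 (control day 11) to 0.6999 (diabetic day 5).

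Blank spots were trimmed by 5% at each end. Background was corrected in limma 3.58.1 under R 4.3.3 (normexp with the blank mean as background, offset 50); control spots and 13 genes with a bad flag were then left out, and arrays were quantile normalized. Genes that passed the blank-spot limit on 1 or more of the arrays compared were used. Pairs of arrays were compared by size (2-fold), averages with limma's lmFit and eBayes, with adjustment over all genes. The fit was first run on simulated arrays with the same error for every gene and additive effects. That run checks the code and does not carry over to these arrays. The number of arrays limits the precision.

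The reported genes are the 5 members. Members, lists and tests were chosen with earlier results of these data known. Pathway and marker lists were not applied, since 0 of the 20174 IDs matched among 47357 genes of the reference table. Alternatives were another background, offset, scaling, limit, fold, filter and variance setting, and the authors' table.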

Additional observations from a re-analysis of the deposited data

Results flagged for a closer look

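The difference between diabetic and control callus had opposite signs on day 5 and day 11 for 3 of the 5 genes as reported. With 1 array per group none of these changes was tested. From day 5 to day 11 the diabetic minus control log2 difference changed by -0.725 for Hif1a (from 0.23 to -0.50) and by -0.701 for Nos3 (from 0.33 to -0.37). For Flt1 it changed by 0.14 (from -0.06 to 0.08), on a scale that the offset compresses. The signs depend on the background. With the local background in normexp, Nos3 was lower in diabetic callus on both days (-0.26 and -0.33), as was Flt1 (-0.02 and -0.26), and Hif1a went the opposite way (-0.02 and 0.97). Among 17661 genes, 4.93% changed by at least as much as Hif1a and 5.23% by at least as much as Nos3, in either direction.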

How the results depend on the processing

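The alternatives were chosen with earlier results of these data known. On day 11 the Vegfa spot of diabetic callus was past 2-fold above that of control callus under all 6 ways of making the values. The reported way is 1 of these, and the log2 differences were 1.03 to 2.32. None of the 5 genes reached 2-fold on day 5 under any of these settings. With normexp on the local background, 0 of the 5 genes were 2-fold apart between the days in control callus and 0 in diabetic callus, in place of 1 each. Hif1a in control callus turned to -0.364, and Vegfa in diabetic callus was at 0.93. At 1.5-fold, 2 of the 5 genes were apart between the days in control callus (Hif1a and Nos3, beside 5.21% of all genes) and 2 in diabetic callus (Vegfa and Hif1a, beside 4% of all genes). In the authors' table, relative to the median of all genes, Flt1 between the days in diabetic callus reached 1.10 and Edn1 between the conditions on day 11 -1.02. The limma fit for diabetes averaged over days called 3 genes with the trend and robust options and 0 under its other settings; none was a member, whose adjusted p in limma ran from 0.26 to 1 over the alternatives. The values of the other scanner gains were not run, since the files used here give 1 median per spot. Leaving out an array was not run, since it empties a group and leaves the fit no residual degree of freedom. No paired analysis was possible because each group has 1 array. With an offset of 16 in place of 50, Vegfa on day 11 moved from 1.57 to 1.97, Edn1 on day 11 from -0.30 to -0.54 and Flt1 between the days in diabetic callus from 0.29 to 0.53.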
